A study of Mus musculus with 8 samples.

Results

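The 10 genes described here belong to insulin and insulin-like growth factor (IGF) signalling and were followed through the m6A peak lists of mouse liver. They are the ligand Igf1, the insulin receptor Insr, the receptor substrates Irs1 and Irs2, the PI3-kinase regulatory subunit Pik3r1, the kinases Akt1 and Akt2, and the IGF-binding proteins Igfbp1, Igfbp2 and Igfbp4. All peaks that carry one of these gene names were taken from the 3 deposited lists. They made up 24 of the 15635 peaks of Wtap flox/flox liver, 25 of the 19185 peaks of Wtap-HKO liver and 5 of the 3870 peaks that were listed as different between the genotypes. Of the 10 genes, 8 had a peak in at least 1 list. Igfbp1 and Igfbp4 had none.

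The livers came from 8-week-old C57BL/6 mice on normal chow. Wtap-HKO mice carry the floxed Wtap allele and a Cre transgene driven by the albumin (Alb) promoter, which is active in hepatocytes, so that the other cells of the liver keep Wtap. The control mice carry the same floxed allele without Cre. Each genotype had 2 m6A-immunoprecipitated (IP) and 2 input libraries of poly(A)+ RNA, and each replicate was RNA pooled from several mice. The deposited lists already combine the replicates, so no spread between replicates and no test of the genotypes across replicates can be given here, and the depth behind each peak is unknown.

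Insulin binds its receptor, a tyrosine kinase that phosphorylates the substrates IRS1 and IRS2. These recruit PI3-kinase, whose product activates AKT, and in hepatocytes AKT restrains glucose production and promotes glycogen and lipid synthesis. The liver is also the main source of circulating IGF1, which signals through a related receptor and travels bound to IGF-binding proteins. N6-methyladenosine (m6A) is a methyl mark that a nuclear writer complex of METTL3, METTL14 and WTAP places on messenger RNA, mostly near stop codons and in long internal exons. In m6ARIP-seq an antibody to m6A pulls down RNA fragments, and a peak is a stretch of exon where IP reads exceed input reads. Its height is the fold enrichment, the linear ratio of IP over input. The antibody also binds the related dimethylated adenosine beside the cap of a transcript.

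The genome sequence was not used here, so the letters below come from the RefSeq windows around annotated transcription starts (GRCm38.p6, 300 bases each, 250 before and 50 after the start). Of the 10 genes, 9 had such a window, Insr being the exception. They are shown because 4 sites that were higher or listed only in Wtap-HKO liver reach into a window, of which Akt1 site 1 does so by 4 bases and is not printed. GGAC, the core letters of the common m6A motif, was searched on the transcript strand and stands in capitals.
Igf1 site 2, chr10:87861030-87861053, plus strand: ctgagccaggGGACgatgggggag
Igf1 site 2, chr10:87861139-87861160, plus strand: ggaaaaagacGGACtccaactc
Pik3r1 site 1, chr13:101768188-101768217, minus strand: ggcgcctggcgctggagctgcgccgctcag
Igfbp2 site 1, chr1:72824503-72824529, plus strand: ggaggcgtctcccgcattcgtctgggc
The Igf1 site shares 131 bases with its window, which surrounds an annotated start inside the gene. The site begins 2765 nt from the 5′ end of the gene. Its shared bases hold GGAC at 2 places, the first upstream of that internal start and the second downstream of it. No GGAC occurs in the 50 shared bases of Pik3r1 site 1 in Wtap-HKO liver, of which the first 30 are printed, or in the 27 shared bases of Igfbp2 site 1. Across 32851 promoter windows of the table, 65.6% hold GGAC, and 18.9% hold it in the 50 bases after the start. Only the 50 bases of Pik3r1 site 1 have a background of like length, and the 131 bases of Igf1 and the 27 of Igfbp2 have none. The letters of the remaining peaks were not analysed here.

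Peaks of a gene that share at least 1 exonic base between the lists were joined into a site, and sites were numbered from the 5′ end of each gene. The 8 genes had 30 sites, of which 19 were in both lists, 5 only in the Wtap flox/flox list and 6 only in the Wtap-HKO list. Thus 20.8% of the Wtap flox/flox peaks of these genes had no partner, against 19.9% of all peaks of that list, and 24.0% of the Wtap-HKO peaks had none, against 35.3% of all. The share without a partner was near that of all peaks in the control list and below it in the Wtap-HKO list, and neither difference was tested. The median fold enrichment of the genes' peaks was 6.23 in control and 5.79 in Wtap-HKO liver, and that of all peaks was 5.51 and 5.93. The exonic length under the peaks was 8777 nt and 8651 nt.

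**Figure D1:**
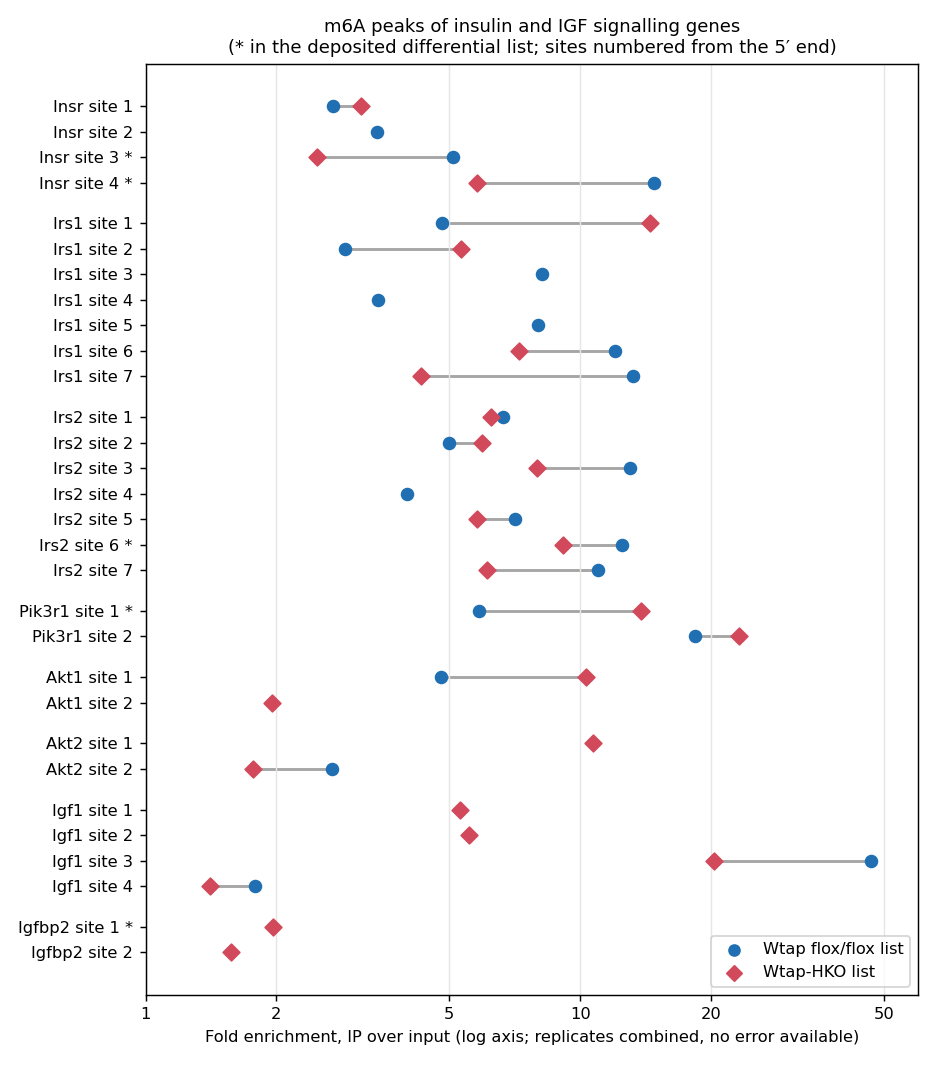
Fold enrichment of IP over input (log axis) at each of the 30 sites, with circles for the Wtap flox/flox list, diamonds for the Wtap-HKO list and a line joining a site found in both. Igf1 site 3 is the highest circle at 46.6, and the Insr, Irs1 and Igf1 sites near the 3′ side have their diamonds to the left of their circles, while the first sites of Irs1, Pik3r1 and Akt1 have them to the right.

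Igf1 (chr10:87858265-87937047, plus strand) encodes the circulating growth factor. Its site 3 at chr10:87915500-87915650 reached a fold enrichment of 46.6 in control (Wtap flox/flox) liver, at the 99.3rd percentile of that list and above every other peak of the 10 genes. In Wtap-HKO liver a peak at chr10:87915441-87915590, which shares 91 nt with it, had 20.3. The value was thus 2.30-fold lower, at a log2 ratio of -1.20. A pair of Igf1 sites towards the 5′ end were listed only in Wtap-HKO liver. Site 1 lies at chr10:87859013-87859157 with a fold enrichment of 5.28, and site 2, whose letters are given above, lies at chr10:87861030-87861209 with 5.56. The weak site 4 at chr10:87915889-87930849 went from 1.79 to 1.41. Its false discovery rates for IP over input were 6.3e-75 in control and 1.0e-11 in Wtap-HKO liver. Those of site 3 were less extreme, at 5.0e-13 and 6.5e-10, so the rate and the height rank these sites differently. Igf1 had no peak in the differential list, neither at site 3 nor at the 5′ sites.

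Insr (chr8:3150922-3279649, minus strand), the insulin receptor, had 4 peaks in control liver and 3 in Wtap-HKO liver, and the exonic length they covered went from 1621 to 961 nt. Site 4 at chr8:3153493-3154182, about 2571 nt from the 3′ end of the gene, stood at a fold enrichment of 14.8 in control liver. In Wtap-HKO liver it was 5.79 over the shorter stretch chr8:3153613-3154032. Site 3, at chr8:3155410-3155919, had 5.10 against 2.48, and there too the Wtap-HKO peak lay inside the bounds of the control peak and was shorter, at 301 against 510 nt. Both sites were in the differential list as lower in Wtap-HKO liver. The deposited log2 fold change was -1.17 at site 4 (false discovery rate 3.2e-41) and -1.1 at site 3 (false discovery rate 6.3e-28). How the peak caller weighed the replicates in this comparison is not given in the sources used here. The peak at the 5′ end behaved otherwise. Site 1 was called at the same bounds in both lists, chr8:3279318-3279557, with 2.70 in control and 3.13 in Wtap-HKO liver. A weak internal peak, site 2 at chr8:3258475-3258655 with 3.41, was listed only in Wtap flox/flox liver.

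Irs1 (chr1:82233105-82291439, minus strand) carries the insulin signal from the receptor to PI3-kinase. It had 7 peaks in control liver and 4 in Wtap-HKO liver, the largest drop in number among the 10 genes. Its first and last sites differed between the genotypes in opposite directions. Site 1, at chr1:82290786-82290966 near the 5′ end, had 4.8 in control and 14.5 in Wtap-HKO liver, 3.02-fold higher. Site 7, whose control peak runs from chr1:82237178-82286800 in 2 exonic blocks, had 13.2 against 4.31, 3.06-fold lower, and its Wtap-HKO peak covers part of the 3′ block only, at chr1:82237238-82237568. These were the highest and the lowest log2 ratio of the 10 genes, 1.59 and -1.61, and they stand at the 93.4th and 3.32nd percentile of all shared pairs. Sites 3, 4 and 5, between 1702 and 3560 nt from the 5′ end, were listed only in Wtap flox/flox liver, with 8.16, 3.42 and 8.00. Site 2 had 2.88 against 5.31 and site 6 had 12 against 7.23. No Irs1 peak was in the differential list, so all of these are differences between 2 separate peak calls.

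Irs2 (chr8:10984681-11008929, minus strand), the other main substrate in liver, had 6 of its 7 sites in both lists. Site 6, whose peaks join 2 exonic blocks across the intron (chr8:10986239-11004563 in the control), had 12.5 in control and 9.13 in Wtap-HKO liver. It was in the differential list at a log2 fold change of -0.70 (false discovery rate 1.9e-07), the smallest of the 5 listed changes. The site nearest the 3′ end, site 7 at chr8:10985041-10985400, had 11 against 6.11, 1.80-fold lower, and was not in that list. Of the 5′ sites, the highest was site 3 at chr8:11006540-11006990, with 13.0 against 7.95. Sites 1, 2 and 5 moved less, with log2 ratios of -0.09, 0.25 and -0.29, and site 4, at 4.0, was listed only in Wtap flox/flox liver. On the positive strand within the span, 1 peak with no gene name was in the Wtap-HKO list.

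Pik3r1 (chr13:101680761-101768217, minus strand) encodes a regulatory subunit of PI3-kinase, and both of its sites had higher values in Wtap-HKO liver. Site 1 starts at the first exon and continues in the next block, at chr13:101757350-101768217 in Wtap-HKO liver. Its fold enrichment was 5.84 in control and 13.8 in Wtap-HKO liver, 2.36-fold higher, and its deposited log2 fold change was 1.1 (false discovery rate 6.3e-13). Site 2, on the 3′ side at chr13:101684042-101686230, had 18.4 against 23.2, which made it the highest peak of the 10 genes in Wtap-HKO liver. It is long in both lists, at 1051 and 1111 nt, and it was not in the differential list.

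Akt1 and Akt2 are the kinases that PI3-kinase activates, Akt2 being the form most tied to insulin action in liver. Akt1 (chr12:112653821-112674884, minus strand) had site 1 at chr12:112674020-112674230 in both lists, with 4.78 in control and 10.3 in Wtap-HKO liver, 2.15-fold higher. A second, weak Akt1 peak at chr12:112656824-112657109 was listed only in Wtap-HKO liver, with 1.95. Akt2 (chr7:27591552-27640826, plus strand) had a peak at the 5′ end in the Wtap-HKO list alone. This site 1 at chr7:27591672-27592399 begins 120 nt from the start of the gene and had a fold enrichment of 10.7, at the 73.6th percentile of the list. The 3′ site 2 at chr7:27638100-27638280 had 2.69 against 1.77. Neither kinase had a peak in the differential list, although Akt2 site 1 had a false discovery rate of 1.3e-58 in its own list.

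The IGF-binding proteins carry IGF1 in blood and set how much of it reaches its receptor. Igfbp2 (chr1:72824480-72852474, plus strand) had 2 peaks in Wtap-HKO and none in Wtap flox/flox liver. It was the 1 gene of the 8 (12.5%) with peaks in the Wtap-HKO list alone, against 21.9% of all genes with a peak, and none of the 8 had peaks in the control list alone, against 7.99% of all. Both were low. Site 1 at chr1:72824503-72824711, which starts 23 nt from the start of the gene, had a fold enrichment of 1.96, at the 3.61st percentile of the list, and site 2 at chr1:72849067-72849275 had 1.57. Site 1 was in the differential list at a log2 fold change of 0.95 (false discovery rate 2.5e-63). Its low false discovery rate went with a low fold enrichment, so the rate and the height rank these sites differently. Igfbp1 (chr11:7197787-7202546), which the liver makes under fasting, and Igfbp4 (chr11:99040005-99052655) had no peak under their names, and none on either strand within their spans, in any list. A missing peak says only that no stretch passed the peak caller, and expression was not measured in these lists.

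**Figure D2:**
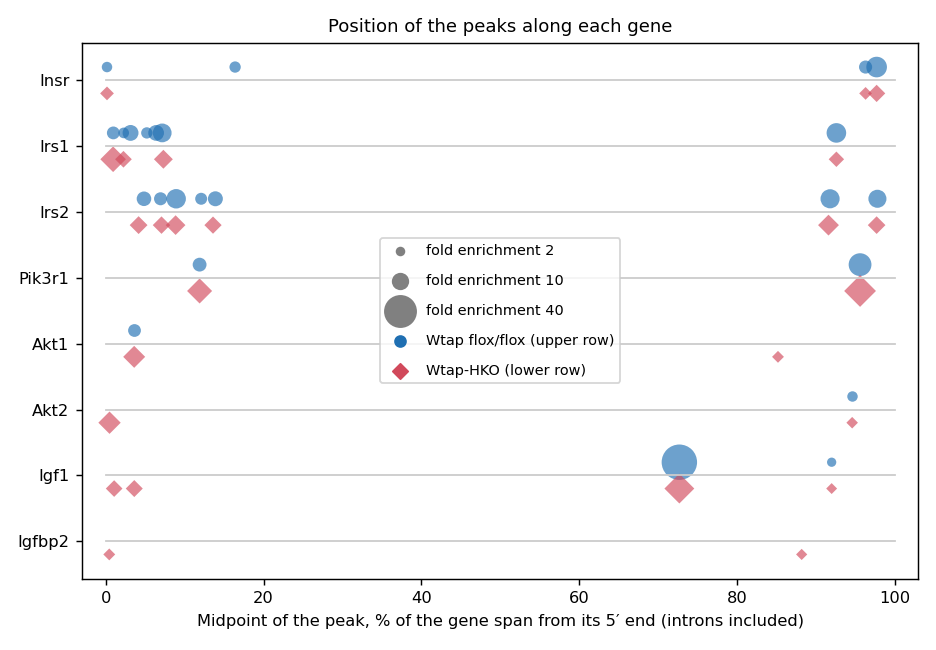
Midpoint of each peak along its gene, as percent of the RefSeq span from the 5′ end with introns included, for the 8 genes with a peak. Circles above each line are Wtap flox/flox peaks, diamonds below are Wtap-HKO peaks and the area grows with fold enrichment. Most peaks lie near an end of the span, and Akt2, Igf1 and Igfbp2 have peaks at the 5′ end only below the line.

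Ordered by height, the leading sites changed between the lists. In Wtap flox/flox liver they were Igf1 site 3 at 46.6, Pik3r1 site 2 at 18.4, Insr site 4 at 14.8, Irs1 site 7 at 13.2 and Irs2 site 3 at 13.0. In Wtap-HKO liver they were Pik3r1 site 2 at 23.2, Igf1 site 3 at 20.3, Irs1 site 1 at 14.5, Pik3r1 site 1 at 13.8 and Akt2 site 1 at 10.7. The first order therefore holds mainly sites on the 3′ side. In the second, 3 of the 5 are sites towards the 5′ end, Pik3r1 site 1 having its midpoint at 11.9% of the span. Without a spread between replicates, neighbours in either order cannot be told apart. Over all shared pairs of the lists, 83.2% of those in the first 10% of the span were higher in Wtap-HKO liver, against 41.8% in the last 10%. The change of order was therefore not shown to be particular to these genes.

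Over the 19 sites in both lists, 12 had a lower and 7 a higher value in Wtap-HKO liver. The median log2 ratio was -0.34, with a range from -1.61 to 1.59. Over all 12524 shared pairs of the lists the median was 0.05, the quartiles were -0.57 and 0.74, and 51.9% were higher in Wtap-HKO liver. More than 2-fold lower were 4 of the 19 (21.1%), namely Insr sites 3 and 4, Irs1 site 7 and Igf1 site 3, against 12.3% of all pairs. More than 2-fold higher were 3 of the 19 (15.8%), namely Irs1 site 1, Pik3r1 site 1 and Akt1 site 1, against 17.0% of all pairs. Of these 7 sites, 3 were in the differential list, those of Insr and Pik3r1, and 4 were not.

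**Figure D3:**
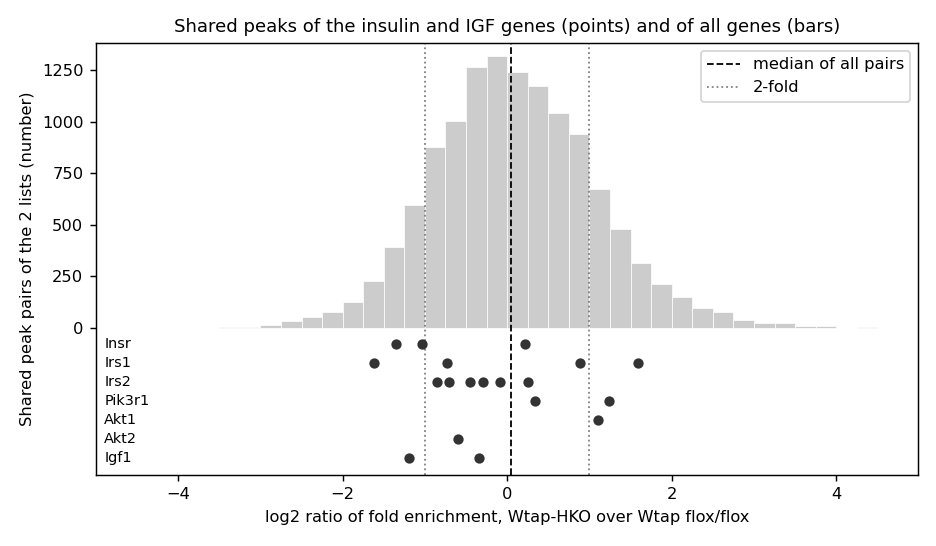
Log2 ratio of fold enrichment, Wtap-HKO over Wtap flox/flox, for the 19 shared sites of the insulin and IGF genes (points, 1 row per gene) below the histogram of all 12524 shared pairs (bars). The points run from -1.61 to 1.59, inside the range of the bars, and the dashed line marks the median of all pairs at 0.05.

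Shared sites near the 3′ end were mostly lower in Wtap-HKO liver, and those near the 5′ end went both ways. In the first 10% of the span, 5 of 8 shared sites were higher in Wtap-HKO liver, with a median log2 ratio of 0.23. In the last 10%, 7 of 8 were lower, with a median of -0.73, Pik3r1 site 2 being the exception. The 3 sites between had a median of -0.29. The medians of the 2 ends had the same order over all genes. There the 1820 pairs in the first 10% had a median of 0.79 and 83.2% were higher. The 4617 pairs in the last 10% had a median of -0.16 and 41.8% were higher. At both ends the median of the insulin and IGF genes was below that of all pairs, and no difference was tested. Of the 6 sites listed only in Wtap-HKO liver, 4 were in the first 10%, those of Akt2, Igf1 and Igfbp2. Of the 5 listed only in Wtap flox/flox liver, 3 were in the first 10%, all in Irs1. The share in the first 10% over all peaks without a partner was not counted here, so these counts have no background. Spans include introns, so a site in the first 10% of a gene with a long intron, such as Irs1, can lie well inside the transcript. Whether a site is in a UTR or in coding sequence was not analysed here.

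The differential list is the deposited comparison of the genotypes, at p under 0.01. A lower peak was listed for 2 of the 8 genes with a peak (25%), Insr and Irs2, and for 16.8% of all 11569 genes with a peak. A higher peak was listed for 2 of the 8 (25%), Pik3r1 and Igfbp2, and for 12.7% of all. At an absolute log2 fold change over 1, 1 of the 8 had a lower peak, Insr, against 8.90% of all, and 1 had a higher peak, Pik3r1, against 8.29%. With 8 genes each share rests on 1 or 2 genes, and no difference from the background was tested. A gene with more peaks has more chances of a listed one, and the shares were not adjusted for the number of peaks per gene. No gene of the 10 was listed in both directions. The 3 lower peaks had their midpoints at 91.7% to 97.7% of the span and the 2 higher peaks at 0.347% and 11.9%.

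The wider pathway was read from a list of 69 other genes of insulin and IGF signalling. Of these, 58 had a peak, 52 of them in control liver and 57 in Wtap-HKO liver, and their peaks numbered 96 and 117. The median log2 ratio over their 82 shared pairs was 0.09, with 10 pairs more than 2-fold lower (12.2%) and 14 more than 2-fold higher (17.1%), close to the 12.3% and 17.0% of all pairs. They held 32 differential peaks, 18 lower and 14 higher in Wtap-HKO liver. A lower peak was listed for 13 of the 58 genes (22.4%, against 16.8% of all genes with a peak) and a higher one for 12 (20.7%, against 12.7%), and these differences were not tested. Nor were these shares adjusted for the number of peaks per gene. The pathway as a whole had listed peaks in both directions.

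The 4 genes with the largest lower changes were Trib3, Eif4ebp1, Ptprf and Ide. Trib3, a pseudokinase that can bind AKT, had the lowest log2 fold changes, -3.02 at chr2:152337422-152337871 at the 3′ end and -2.63 next to it. The control list gave 2 Trib3 peaks, of 9.98 and 5.20, with midpoints at 95.8% and 87.0% of the span, and no Wtap-HKO peak was called at either. The single Trib3 peak of the Wtap-HKO list, at 4.53, is another site, 28 nt from the 5′ end. Eif4ebp1, a translational repressor that mTOR phosphorylates, followed at -1.85. Ptprf, a receptor tyrosine phosphatase, had -1.78, and Ide, the insulin-degrading enzyme, had -1.35. The 4 genes with the largest higher changes were Igfbp6, an IGF-binding protein, at 2.37, Foxo1, a transcription factor that AKT keeps out of the nucleus, at 1.56, Map2k1, a kinase of the Ras branch, at 1.55, and Rptor, the scaffold of mTOR complex 1, at 1.5. Peaks in the Wtap-HKO list alone were found for 6 of the 58 genes (10.3%, against 21.9% of all genes with a peak), the highest being Sh2b2 at 28.9, Igfbp6 at 7.77, Grb14 at 6.63 and Map2k1 at 4.98. Pik3r2, at 2.35, was the 1 gene of the 58 with a peak in the control list alone (1.72%, against 7.99% of all).

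Among the 58 genes, 3, namely Foxo1, Ptprf and the growth hormone receptor Ghr, had differential peaks in both directions, and in each the higher peak was on the 5′ side. The share of all genes with listed peaks in both directions was not counted here. Foxo1 had 1.56 at 0.237% of its span and -1.1 at 95.3%. Ghr had 1.09 at 0.0548% and -0.60 at 99.1%. Ptprf had 1.44 at 0.163%, and its lower peaks lay at 66.1% and 78.6%. Over the 10 genes and the wider list together, none of the 21 lower peaks lay in the first 20% of the span and 17 lay in the last 20%. Of the 16 higher peaks, 11 lay in the first 20% and 5 in the last 20%. These positions were not counted over all differential peaks. Over all shared pairs, 83.2% of those in the first 10% were higher in Wtap-HKO liver, against 41.8% in the last 10%. The order was therefore not shown to be particular to this pathway.

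**Figure D4:**
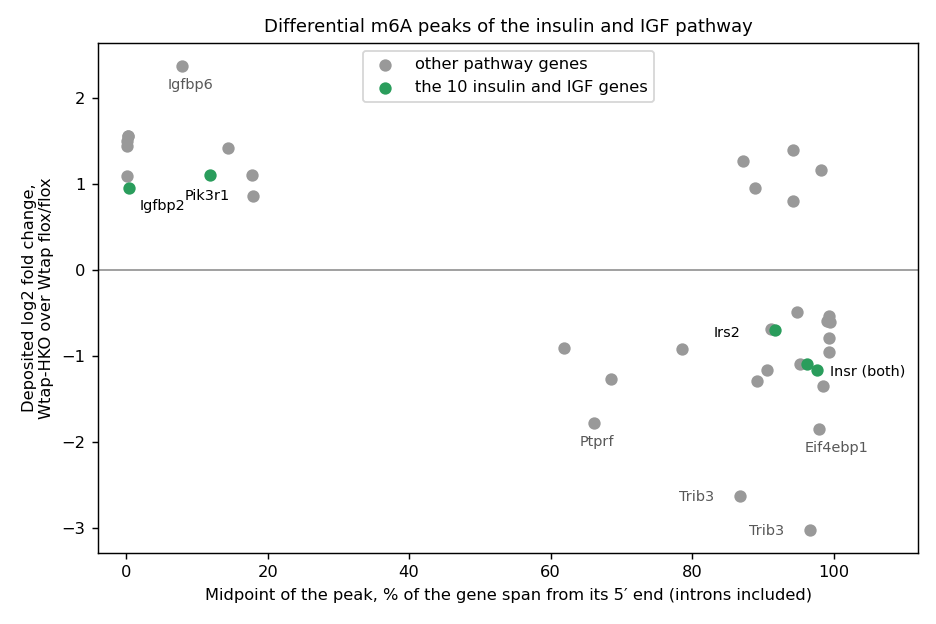
Deposited log2 fold change of each differential peak, Wtap-HKO over Wtap flox/flox, against the midpoint of the peak in percent of the RefSeq span from the 5′ end, for the 10 genes (green) and the wider list (grey). All 21 lower peaks lie at or beyond 61.9% of the span, and 11 of the 16 higher peaks lie in the first 20%. The positions of the differential peaks of other genes were not counted.

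Wtap itself had 3 peaks in each list and 1 differential peak at a log2 fold change of -0.74. Since the lists hold no expression values, they do not measure the loss of Wtap. The cell composition could be read only as the presence of peaks. Of 8 hepatocyte markers, 6 had a peak in each list. The 6 differed, with Cyp2e1 in the control list only and Ttr in the Wtap-HKO list only. Sinusoidal endothelial and stellate markers had peaks for 4 of 5 in each. Of 6 Kupffer cell and macrophage markers, 1 had a peak in control liver and 5 in Wtap-HKO liver. Of 6 neutrophil and lymphocyte markers, 0 and 3 had one, S100a8, S100a9 and Ptprc. Cholangiocyte markers had peaks for 2 and 3 of 5. Over all genes with a peak, 21.9% had peaks in the Wtap-HKO list alone and 7.99% in the control list alone. The marker counts include markers with no peak in either list, so they are not on the same basis as these shares. Whether the marker counts differ from the shares was not tested. In bulk liver, a change in the number of cells of a type and a change in RNA per cell cannot be told apart. The part of other cells in the peaks of the insulin and IGF genes was not tested.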

How the data were processed

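m6ARIP-seq of liver was deposited as 3 peak lists, 1 for each of the 2 genotypes and 1 of differential peaks, for 8 libraries. The authors trimmed reads with fastp 0.19.11, aligned them to GRCm38 (Ensembl) with BWA 0.7.12, and called peaks with exomePeak. HOMER 4.9.1 is also among the tools in the submitters' processing notes. The deposited fold enrichment is a ratio, IP divided by input on a linear scale. The deposited p-values and false discovery rates are log10 scores, printed here as powers of 10. The difference between genotypes was deposited as a log2 fold change by the authors' own exomePeak comparison, and it was read as such because the differential list is part of what was followed. Reads and single libraries are not resolved in the lists, so depth, intervals and smallest detectable values cannot be given. The lists also hold a gene name and exonic blocks for each peak.

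Rows were taken by gene name. Peaks of both genotypes were paired where at least 1 exonic base was shared on the same strand, each Wtap flox/flox peak with the Wtap-HKO peak sharing most bases. A ratio past 2-fold counted as called. Starts are printed 1-based, and spans are from RefSeq on GRCm38.p6. Pairing was tested on simulated lists. Python 3.11.15, pandas 2.3.3, numpy 2.4.6 and matplotlib 3.10.9 were used. The genes and lists were chosen with earlier results of these data known. Of the wider list, the named genes are the 4 with the largest log2 fold change in each direction and up to 4 listed in 1 genotype only, by fold enrichment. Genes named in both directions, Wtap and the genes under other observations are named beside that rule, the last after their values were seen. Alternatives changed the false discovery rate, the fold enrichment, the overlap, the centring, the gene match and the fold change threshold.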

Additional observations from a re-analysis of the deposited data

How the results depend on the processing

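The number of higher differential peaks of the 10 genes was 2, and it was 1 at an absolute log2 fold change over 1, where the Igfbp2 peak drops out. The number of lower ones was 3, and it was 2 there, where the Irs2 peak drops out. In the other alternatives run, counts stayed within 1.5 times the main count, and the median log2 ratio ran from -0.40 to -0.34. The 19 site ratios kept their direction and their side of 2-fold when centred on the median of all pairs. That median was only 0.05 on the log2 scale, so centring moved each ratio little and is a weak check. The number of Wtap-HKO peaks was 20 instead of 25 when a fold enrichment of at least 2 was asked for. Of the 19 pairs, 18 were left when 50% of both peaks had to be shared. No paired analysis was possible because the deposited lists combine the replicates of a genotype, and for the same reason leaving out a replicate was not run. Depth is unknown, so a peak listed in 1 genotype only may have fallen short of the caller's threshold in the other.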

Other observations

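The carriers of IGF1 outside the 10 genes were looked at after their values were seen. Igfbp3, the main IGF carrier of blood, had 2 differential peaks, both higher in Wtap-HKO liver, at log2 fold changes of 0.96 and 1.1. Igfbp5 had 2 as well, at 1.26 and 1.39, and its highest peak reached 31.6 in control and 68.4 in Wtap-HKO liver. Igfals, the acid-labile subunit that joins IGF1 and IGFBP3 in a circulating complex, had 2 lower peaks, at -1.27 and -1.17, with highest values of 9.57 and 4.58. The IGF1 receptor gene Igf1r had 3 peaks in each list, the highest at 29.9 and 53.3, and none in the differential list. Ins1, Ins2 and Igf2 had no peak in any list.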
